A study of Homo sapiens with 30 samples.

Results

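LAMP1, MKNK2, PKNOX1, PTMS and ACAP2 are 5 of the 6 genes with the highest scored nuclear hNABP2 promoter peaks in ChIP repeat 1 of HT1080 cells, the other being TAF4. They were chosen by the scores that the authors' peak caller gave in repeat 1 of the anti-hNABP2 ChIP, with their run-on counts in 18 libraries taken alongside. They are 5 of 26475 genes in the run-on count table, and 5 of 7964 genes with a promoter peak in ChIP repeat 1. The values of repeat 1 chose these genes, so those values are given as a description and nothing is read from them. The rule names the annotated peak tables of both ChIP repeats, but ACAP2 was listed only in that of repeat 1.

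HT1080 is a human fibrosarcoma cell line, taken here at passages 10 to 15. The 30 libraries of the study cover 3 assays. ChIP-seq of WT cells has 2 anti-hNABP2 repeats and 2 IgG repeats, and the IgG libraries are not analysed here. Global run-on sequencing (GRO-seq), in which nuclei extend engaged transcripts and the bromouridine-labelled RNA is captured, has 3 repeats in each of 6 groups. These are WT, hNABP2 (hSSB1) KO and hNABP1 (hSSB2) KO cells, each run with nucleotides (with NTP) or without (no NTP), the latter being the background of the assay. DRIP-seq, in which the S9.6 antibody captures RNA:DNA hybrids, has 2 repeats each of WT and hNABP2 KO cells without RNase H, and the libraries with RNase H are not analysed here. No treatment was applied to any group. The labels do not say how the knockouts were made or whether each line is 1 clone. They mention 2 independent experiments but list 3 run-on repeats, so SDs and p-values below measure the spread between libraries, which may be technical.

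hNABP2 and hNABP1 are human single-stranded DNA-binding proteins of the OB-fold type. Each can join INTS3 and INIP in the SOSS complex, which acts in the response to DNA breaks, and INTS3 is also a subunit of Integrator, a complex that works on RNA polymerase II near gene starts. The 5 genes belong to unrelated pathways. LAMP1 is a heavily glycosylated protein of the lysosomal membrane. MKNK2 encodes MNK2, a kinase downstream of MAP kinases that phosphorylates the cap-binding protein eIF4E. PKNOX1 encodes PREP1, a homeodomain partner of PBX transcription factors. PTMS is parathymosin, a small acidic nuclear protein related to prothymosin alpha. ACAP2 is a GTPase-activating protein for ARF6 that binds RAB35 and works in membrane recycling.

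The promoter sequences are shown because their motif content differed from gene to gene. The repeat 1 summits of LAMP1 and ACAP2 fell inside the printed stretch, those of MKNK2 and PKNOX1 beyond its end, and most of the PKNOX1 stretch lies between the 2 ChIP peaks of that gene. They were taken from RefSeq on GRCh38.p14 and run 5′ to 3′ along the gene, up to the base before the earliest annotated start. LAMP1 is at chr13:113296989-113297238 on the plus strand, MKNK2 at chr19:2051245-2051494 on the minus strand, PKNOX1 at chr21:42974312-42974509 on the plus strand and ACAP2 at chr3:195443021-195443270 on the minus strand. PTMS had no entry among the 27305 promoters of the table. Capitals mark matches, on either strand, to the motifs named in the next paragraph.
LAMP1: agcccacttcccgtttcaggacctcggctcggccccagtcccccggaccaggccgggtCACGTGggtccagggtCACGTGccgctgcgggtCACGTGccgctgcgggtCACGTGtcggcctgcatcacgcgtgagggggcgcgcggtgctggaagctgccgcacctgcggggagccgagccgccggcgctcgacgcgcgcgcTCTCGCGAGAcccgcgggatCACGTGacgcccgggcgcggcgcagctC
MKNK2: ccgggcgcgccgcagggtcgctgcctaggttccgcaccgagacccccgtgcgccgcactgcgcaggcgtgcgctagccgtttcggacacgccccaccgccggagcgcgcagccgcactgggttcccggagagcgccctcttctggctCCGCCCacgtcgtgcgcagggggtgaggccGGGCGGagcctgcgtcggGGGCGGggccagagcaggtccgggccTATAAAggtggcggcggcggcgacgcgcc
PKNOX1: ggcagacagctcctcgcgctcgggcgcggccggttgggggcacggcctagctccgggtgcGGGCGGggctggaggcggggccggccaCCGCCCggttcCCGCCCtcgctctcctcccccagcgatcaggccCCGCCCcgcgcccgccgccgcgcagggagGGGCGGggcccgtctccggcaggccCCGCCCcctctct
ACAP2: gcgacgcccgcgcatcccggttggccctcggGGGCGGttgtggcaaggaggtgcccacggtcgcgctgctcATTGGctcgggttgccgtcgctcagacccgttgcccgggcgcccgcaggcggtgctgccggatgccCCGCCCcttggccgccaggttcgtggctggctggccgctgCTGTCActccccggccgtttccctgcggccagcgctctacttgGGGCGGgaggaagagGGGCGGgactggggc

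Motifs were searched on both strands in windows from 250 bases before to 50 after each RefSeq start, and positions count the start base as 0. The LAMP1 window held 6 copies of the E-box CACGTG, the palindrome recognised by bHLH-zipper factors such as TFEB, MYC and USF1. Their first bases lay at -192, -176, -159, -142, -28 and -1, and the last of them runs across the start, so that only its C is printed. At least 1 such E-box was present in 7.43% of the 27305 promoters, and LAMP1 was the only promoter with 6 (0.00366%). The repeat 1 summit of LAMP1, at -153, fell between the E-boxes at -159 and -142. LAMP1 also held, at -48, 1 copy of the palindrome linked to ZBTB33, the run of capitals that is not an E-box, which 0.469% of promoters hold.

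The other promoters shared a different element. GGGCGG, the GC box of SP1 and KLF factors, occurred 3 times in MKNK2, 6 times in PKNOX1 and 4 times in ACAP2, and not in LAMP1. As many copies were held by 15.9%, 2.91% and 9.13% of all promoters, in that order. At least 1 GC box was present in 44.6% of all promoters and in 81.4% of the 1646 promoters with a peak in both ChIP repeats. MKNK2 had a TATAAA match at -29, found in 12.0% of promoters. ACAP2 had CCAAT, the NF-Y box, from -179 to -175, with the repeat 1 summit on the base at -175. This box is present in 35.7% of promoters. It also held TGACAG, a PBX, MEIS and PREP site, at -73 (15.9% of promoters). The same windows had no match to the NRF1 or YY1 motif, CCGGAAGT (ETS), TGACGTCA (CRE) or TGATTGAC (PBX). A match here describes letters, and overlap between motifs was allowed.

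All 4 windows were rich in G and C. GC content was 75% in LAMP1, 77.3% in MKNK2, 78.7% in PKNOX1 and 73.7% in ACAP2, beside medians of 58.3% over all promoters and 72.7% over promoters bound in both ChIP repeats. Read against bound promoters, ACAP2 lay near the middle (52.4% had a lower GC content) and PKNOX1 higher (79.0%). The ratio of observed to expected CpG was 1.16 in LAMP1, higher than in 98.9% of all promoters, and 1.01, 0.991 and 0.912 in MKNK2, PKNOX1 and ACAP2. GC skew along the gene, (G - C)/(G + C), was 0.0588 in ACAP2, 0.0517 in MKNK2, 0.00444 in LAMP1 and -0.0169 in PKNOX1, beside medians of 0.00498 over all and 0.0201 over bound promoters. The 4 genes thus fell on both sides of the median of bound promoters in skew.

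In ChIP repeat 1 the authors' list held 10068 peaks, of which 8970 were nuclear promoter peaks with a median fold over local background of 3.16 and a median width of 380 bp. The fold and the -log10 q of each peak are the peak caller's own values. The ACAP2 peak ranked 1 by score among nuclear peaks, with a fold of 15.6 and -log10 q of 527, and spanned chr3:195442471-195443414 with its summit at -175. LAMP1 ranked 2 (12.2-fold, 397) at chr13:113296801-113297443, with its summit at -153. MKNK2 ranked 3 (12.1-fold, 361) at chr19:2050598-2051599. PKNOX1 ranked 5 (17.9-fold, 326) at chr21:42974490-42975400, and PTMS ranked 6 (13.6-fold, 326) at chr12:6766227-6767159. The summits of MKNK2, PKNOX1 and PTMS lay inside the gene, at +50, +94 and +64. The peaks were 643 bp wide in LAMP1 and 911 to 1002 bp wide in the other 4.

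Peaks close to these 5 in the ranking had values like theirs. A peak on the mitochondrial chromosome had the highest score of all, with a -log10 q of 1220. Rank 4 was TAF4, a TFIID subunit and no member, at 14-fold (346). Just below PTMS came GTF2A1 (17.1-fold, 313), FBH1 (15.8-fold, 309), CNIH2 (13.2-fold, 305), FAM53C (13.8-fold, 302) and LRRC74B (18.5-fold, 276), and none of those 5 overlapped a peak of repeat 2. By fold in place of score, PKNOX1 ranked 5, ACAP2 10, PTMS 15, LAMP1 24 and MKNK2 26. MKNK2 also had 3 weaker peaks annotated to it far before its start, with summits at -10278, -8607 and -4837 and folds of 4.28, 3.71 and 2.03. A second promoter peak of PKNOX1, with its summit at -479, had a fold of 3.79.

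ChIP repeat 2 gave 2832 peaks, and 4 of the 5 genes had a promoter peak in it, all but ACAP2. Of all repeat 1 promoter peaks, 24.5% overlapped a repeat 2 peak by 1 bp or more, as did 50% of the 10, 37% of the 100 and 34% of the 1000 with the highest scores. Since the rule names repeat 2 as well, nothing is read from the count of 4. In repeat 2 the fold was 3.85 in LAMP1 (-log10 q 4.75), 6.41 in MKNK2 (7.58), 5.77 in PKNOX1 (9.34) and 6.02 in PTMS (6.75). These folds were not high for repeat 2: 5.1% of the 2196 shared promoter peaks had a lower fold than LAMP1, 44.4% than PKNOX1, 51.5% than PTMS and 59.6% than MKNK2. The median fold over the 4 was 5.89, beside 6.02 over all shared promoter peaks. By -log10 q the median over shared promoter peaks was 4.91, below MKNK2, PKNOX1 and PTMS and above LAMP1. Among the nuclear peaks of repeat 2, PKNOX1 ranked 278 by -log10 q, MKNK2 540, PTMS 685 and LAMP1 1347.

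The repeat 2 summit lay 18 bp from that of repeat 1 in MKNK2, 29 bp in LAMP1, 71 bp in PKNOX1 and 184 bp in PTMS, where the median distance over shared promoter peaks was 117 bp. All of each repeat 2 peak (100%) lay inside the repeat 1 peak of the same gene. The fold in repeat 1 was 1.89 to 3.17 times that in repeat 2, with MKNK2 lowest and LAMP1 highest. Nothing is read from this ratio, since high repeat 1 values chose the genes. Across the 2196 shared peaks the folds of the repeats had a Spearman correlation of 0.019 and a Pearson correlation of 0.04. These peaks come from the same 2 libraries and share their depth. The nearest repeat 2 peak to the ACAP2 peak was 171208 bp away, although repeat 2 had 164 peaks on chromosome 3. The next shared promoter peaks by repeat 1 score after the members and TAF4 (4.69-fold in repeat 2) were those of SNHG7 (9.30-fold and 7.35-fold in repeats 1 and 2), SIK3 (12.6 and 6.02), KDM4B (12.6 and 6.47) and FASN (7.95 and 7.05).

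**Figure D1:**
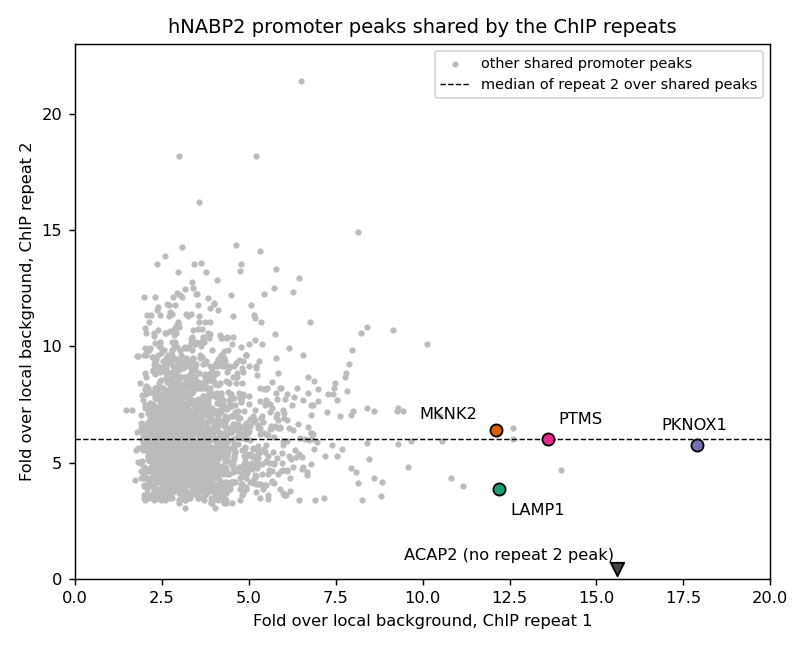
Fold over local background of hNABP2 promoter peaks in ChIP repeat 1 (x axis) and repeat 2 (y axis), as the authors' peak caller gave them, with 1 point per promoter peak found in both repeats and the 5 genes in colour. LAMP1, MKNK2, PKNOX1 and PTMS lie at the right, between 12.1 and 17.9 in repeat 1, but between 3.85 and 6.41 in repeat 2, around or under the dashed median of 6.02. ACAP2 has no repeat 2 peak and is drawn as a triangle near the x axis.

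Run-on peaks gave a second readout, from another assay, at the same starts. Only libraries with NTP have peak lists, so these peaks could not be set beside the background without NTP. That background is given further below for the gene counts. Of the 9 libraries with NTP that have peak lists, 8 held 94 to 518 peaks and the third repeat of hNABP1 KO held 9965, so values with and without that library are given. ACAP2 had a run-on peak within 1000 bp of its start in 3 libraries, LAMP1 in 2 and PKNOX1 in 1, while MKNK2 and PTMS had none. Thus 3 of the 5 genes had such a peak in at least 1 library, and 2 (ACAP2 and LAMP1) without the third hNABP1 KO repeat. Over all 27305 RefSeq promoters, 23.6% had a start peak in at least 1 library, and 3.48% in at least 1 of the 8 libraries left without the third hNABP1 KO repeat. None of the 5 genes had one in any of the 3 hNABP2 KO lists, where 0.374%, 0.476% and 0.132% of promoters did.

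In WT repeat 3, ACAP2 had a run-on peak at chr3:195443061-195443345 with a fold of 7.46 and -log10 q of 18.5, the third highest in that library by -log10 q. LAMP1 had one at chr13:113296949-113297158 with a fold of 4.83 and -log10 q of 7.65, which ranked 26 by -log10 q. By fold the ranks were lower, 40 for ACAP2 and 220 for LAMP1. The LAMP1 fold lay below the median of 5.67 over the peaks of that library. Start peaks were present at 0.901% of all promoters in that library and at 2.58% of the 1664 promoters bound in both ChIP repeats. Among the 79 promoters of the 100 highest scored in ChIP repeat 1, the share was 7.59%, or 6 promoters. ACAP2 and LAMP1 are themselves among those 6. The run-on summits lay at -160 in ACAP2 and -154 in LAMP1, close to the ChIP repeat 1 summits at -175 and -153. Both run-on peaks lay wholly before the start, from -325 to -41 in ACAP2 and from -290 to -81 in LAMP1. In WT repeat 1, ACAP2 had a peak from +37 to +231 with a fold of 4.9 (-log10 q 5.08), in a library where 0.168% of promoters had one. WT repeat 2 had no peak at any of the 5 starts (0.337% of promoters).

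The third hNABP1 KO repeat had start peaks at 22.2% of all promoters, and at 62.3% of promoters bound in both ChIP repeats. There, ACAP2 had a peak at chr3:195442727-195443413 (29.3-fold, -log10 q 92.6), PKNOX1 at chr21:42973967-42975232 (27.2-fold, 58.0) and LAMP1 at chr13:113296804-113297295 (13.2-fold, 25.2). The members' 3 of 5 sits at the level of bound promoters in that library. The other hNABP1 KO repeats had none at these starts (0.846% and 0.509% of promoters). Every base of the ACAP2 and LAMP1 run-on peaks lay inside the ChIP repeat 1 peak of the same gene. The PKNOX1 run-on peak reached beyond its main ChIP peak and took in the second, weaker one. The 4 DRIP lists hold 13 to 173 peaks. A DRIP peak within 1000 bp of the start was found for 0 of the 5 genes, and for 0.286% of all promoters in at least 1 list (0.0696% and 0.0256% in the WT repeats, 0.00732% and 0.183% in those of hNABP2 KO).

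**Figure D2:**
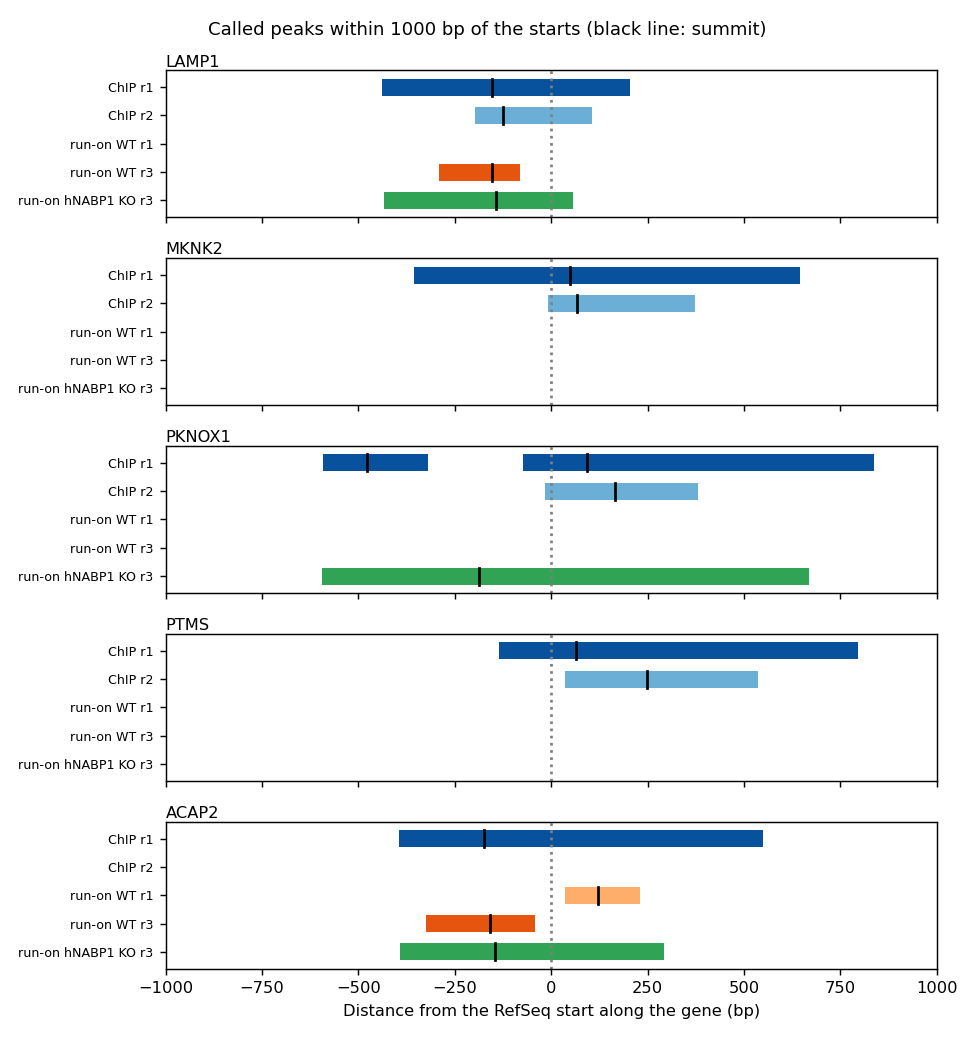
Called peaks within 1000 bp of each gene's RefSeq start (x axis: distance in bp along the gene, dotted line at the start), with 1 row per peak list that holds any and black lines at the summits. The run-on summits of LAMP1 and of ACAP2 in WT repeat 3 and hNABP1 KO repeat 3 lie between -160 and -144, beside the ChIP repeat 1 summits at -153 and -175, and MKNK2 and PTMS have no run-on peak.

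The run-on count table is shallow. Libraries of repeats 1 and 2 held 5272 to 19581 counts and those of repeat 3 held 19247 to 164357. In repeats 1 and 2, 3 counts amount to a level of 153 to 569 CPM, the count scaled to the library total, and in repeat 3 to 18.3 to 156 CPM. Summed over all 18 libraries, ACAP2 had 162 counts, LAMP1 122, PTMS 80, PKNOX1 75 and MKNK2 57. Repeat 3 held 98.1%, 95.1%, 97.3% and 96.5% of the counts of ACAP2, LAMP1, PKNOX1 and MKNK2, but 57.5% of those of PTMS. For 3155 genes with 50 or more counts the median share was 86.7%. All 9 mesenchymal marker genes that were looked up, VIM and FN1 among them, had counts (3662 in all, 1640 to 42000 CPM per library). Fewer counts fell in the epithelial list (5 of 5 genes, 308 counts, 104 to 2920 CPM). The leukocyte list had 64 counts (5 of 5, 0 to 511 CPM) and the neural list 133 (4 of 4, 0 to 334 CPM). These CPM are sums over the genes of a list, and the lists differ in size. Across libraries the mesenchymal and epithelial ranges overlapped. NABP2 itself had 12 counts in the 3 WT libraries with NTP and 22 in those labelled hNABP2 KO, and NABP1 had 20 in WT and 19 in those labelled hNABP1 KO. Without NTP, NABP2 had 2 counts in WT and 8 in the libraries labelled hNABP2 KO. The counts of the targeted genes were thus similar or higher in the libraries labelled as their knockouts, and the genotypes named below are those of the labels.

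LAMP1 was read in 11 of the 18 libraries. With NTP, its counts in repeats 1, 2 and 3 were 2, 0 and 36 in WT, 1, 0 and 34 in hNABP2 KO, and 0, 0 and 17 in hNABP1 KO. As levels these were 129 ± 114 CPM, 115 ± 157 CPM and 49.1 ± 85.0 CPM (SD, n = 3 each). In each genotype the third repeat was the high one and the groups overlapped at 0. Within repeat 3 the level was 219 CPM in WT (exact Poisson 95% interval 153 to 303), 293 CPM in hNABP2 KO (203 to 410) and 147 CPM in hNABP1 KO (85.7 to 236). These intervals, as all those below, cover counting error only, and that of hNABP1 KO overlapped both others.

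ACAP2 had the most counts of the 5. With NTP they were 0, 0 and 55 in WT, 2, 0 and 29 in hNABP2 KO, and 0, 0 and 46 in hNABP1 KO. The levels were 112 ± 193 CPM, 117 ± 126 CPM and 133 ± 230 CPM (SD, n = 3 each), nearly all from repeat 3. Within repeat 3 ACAP2 stood at 335 CPM in WT (252 to 436), 250 CPM in hNABP2 KO (168 to 359) and 398 CPM in hNABP1 KO (292 to 531). The library without a called ACAP2 start peak in repeat 3, hNABP2 KO, was also the lowest of the 3 in its count, though the intervals overlap. LAMP1 went the other way. It had no called start peak in that library either, but its level there was the highest of the 3 (293 CPM, beside 219 CPM in WT and 147 CPM in hNABP1 KO). The WT repeat 3 start peaks of both genes lay wholly before the start, so peak and gene count need not share reads.

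PKNOX1 had 1, 0 and 17 counts in WT with NTP, 0, 0 and 14 in hNABP2 KO, and 0, 0 and 27 in hNABP1 KO. The levels were 62.3 ± 54.9 CPM, 40.3 ± 69.7 CPM and 77.9 ± 135 CPM (SD, n = 3 each). In repeat 3 the hNABP1 KO library was highest at 234 CPM (154 to 340), beside 103 CPM in WT (60.3 to 166) and 121 CPM in hNABP2 KO (66 to 203), and its interval overlapped both. MKNK2 had 0, 0 and 19 counts in WT, 0, 0 and 14 in hNABP2 KO, and 2, 0 and 6 in hNABP1 KO. Its levels were 38.5 ± 66.7 CPM, 40.3 ± 69.7 CPM and 77.4 ± 92.8 CPM, the last raised by 2 counts in a small library. MKNK2 was at 0 in 12 of the 18 libraries.

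PTMS ran the other way between repeats. With NTP its counts were 3, 0 and 15 in WT, 9, 0 and 11 in hNABP2 KO, and 5, 0 and 15 in hNABP1 KO, or 114 ± 127, 185 ± 243 and 194 ± 232 CPM (SD, n = 3 each). In repeat 1 the level was 250, 460 and 451 CPM with NTP, and 1190, 190 and 448 CPM without, in the order WT, hNABP2 KO and hNABP1 KO. In repeat 3 it was 91.3, 94.9 and 130 CPM with NTP. At its repeat 3 level PTMS would have given 6.13 counts in the 6 libraries of repeat 1, and 33 were found. The other 4 genes fell short in the same libraries: LAMP1 had 5 where 15.5 would be given, MKNK2 2 of 7.33, PKNOX1 1 of 9.73 and ACAP2 2 of 21.2. In repeat 2 all 5 had 0 or 1 count, where 3.56 to 12.3 would be given.

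Per kilobase of gene, the order of the levels was different. In the summed repeat 3 libraries, those without NTP included, PTMS, whose gene spans 4590 bp, had 19.3 CPM per kb. LAMP1 (26434 bp) had 8.47, MKNK2 (13774 bp) 7.70, PKNOX1 (59370 bp) 2.37 and ACAP2 (168276 bp) 1.82 CPM per kb. In WT repeat 3 with NTP, 95.1% of genes had a lower level per kb than PTMS, 88.4% than MKNK2, 88.2% than LAMP1, 62.3% than ACAP2 and 59.5% than PKNOX1. LAMP1 and MKNK2 were neighbours in this order with overlapping counting intervals, as were PKNOX1 and ACAP2. ACAP2, with the highest ChIP score and the strongest WT start peak, had the lowest run-on level per length of the 5 in the summed repeat 3 libraries. In WT repeat 3 with NTP alone, ACAP2 stood above PKNOX1 (1.99 and 1.74 CPM per kb).

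**Figure D3:**
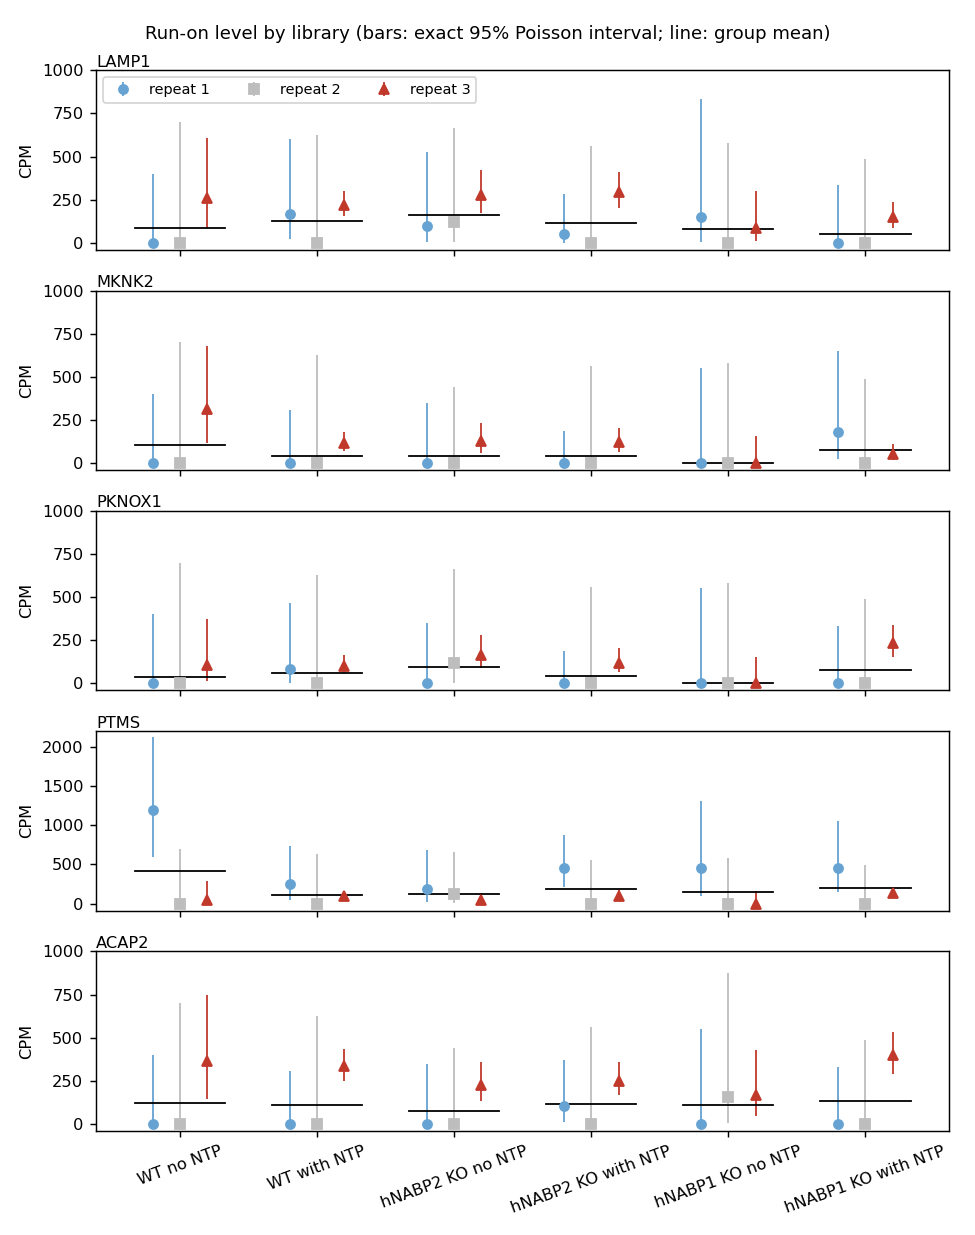
Run-on level in CPM (y axis; the scale of PTMS is longer) of the 5 genes in the 6 groups (x axis), with 1 point per library, exact 95% Poisson intervals as bars and group means as horizontal lines. Repeat 3 (triangles) lies above the other repeats in most groups for LAMP1, PKNOX1 and ACAP2, whereas repeat 1 (circles) is highest for PTMS, reaching 1190 CPM in WT no NTP.

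No member differed between genotypes beyond the spread of the libraries. With edgeR's quasi-likelihood test and Benjamini-Hochberg adjustment over 13447 genes, the adjusted p of all 5 genes was 1 in hNABP2 KO against WT, in hNABP1 KO against WT and in hNABP2 KO against hNABP1 KO. Of all genes tested, 0% were called in each comparison, with 44, 201 and 284 genes at an unadjusted p under 0.05, and DESeq2 called 0 as well. The fitted log2 fold changes in hNABP2 KO were 0.14 (SE 1.23) in LAMP1, 0.02 (1.58) in MKNK2, -0.14 (1.38) in PKNOX1, 0.81 (1.30) in PTMS and -0.11 (1.19) in ACAP2. In hNABP1 KO they were -0.50 (1.26), 0.14 (1.61), 0.99 (1.35), 0.81 (1.30) and 0.55 (1.19), in the same order. These 2 comparisons share the WT libraries. In hNABP2 KO against WT the median of the 5 was 0.02, beside 0.03 over all genes tested, and in hNABP1 KO against WT it was 0.55, beside -0.08. Groups of CPM that do not overlap were found for 0 of the 5 genes, and for 2.07%, 2.03% and 2.71% of all genes in the 3 comparisons. All 5 genes were at 0 in repeat 2 with NTP in every genotype. Their groups could therefore not be apart, and nothing is read from this count. SEs of more than 1 on the log2 scale mean that a change of 2-fold in these genes was not detectable at this depth. With the repeat number as a block, 15 genes were called in hNABP1 KO against WT and 17 in hNABP2 KO against hNABP1 KO, none of them a member, and 0 in both without the third hNABP1 KO repeat.

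**Figure D4:**
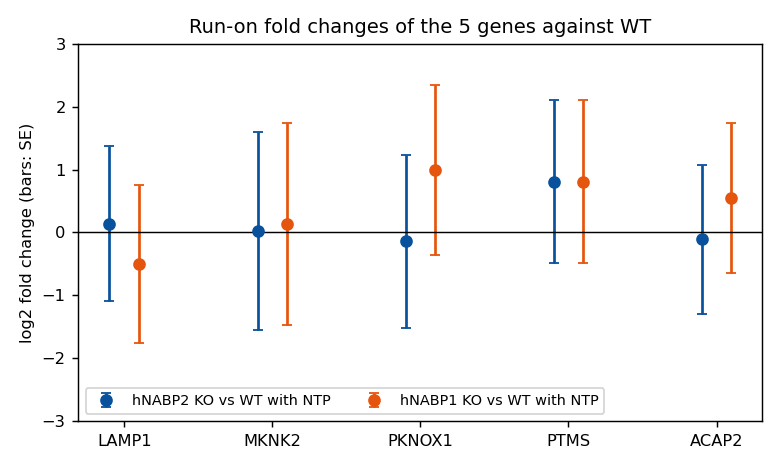
Log2 fold change of run-on counts with NTP (y axis; bars: SE of edgeR's quasi-likelihood fit) in hNABP2 KO (blue) and hNABP1 KO (orange) against WT for the 5 genes (x axis). All 10 values lie between -0.50 and 0.99 and every bar crosses 0.

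Libraries without NTP measure the background of the assay, and in the third repeat of WT and hNABP2 KO it was close to or above the signal at 4 of these genes. In WT repeat 3, LAMP1 stood at 219 CPM with and 260 without NTP, ACAP2 at 335 and 364, PKNOX1 at 103 and 104, and MKNK2 at 116 and 312. In hNABP2 KO repeat 3 the levels with and without NTP were 293 and 277 for LAMP1, 250 and 227 for ACAP2, 121 and 164 for PKNOX1, and 121 and 126 for MKNK2. PTMS stood at 91.3 and 52 CPM in WT, and at 94.9 and 50.4 CPM in hNABP2 KO. The counts without NTP in WT repeat 3 were only 5, 7, 2, 6 and 1 for LAMP1, ACAP2, PKNOX1, MKNK2 and PTMS. In hNABP1 KO repeat 3 the level without NTP rested on 0 to 4 counts in each of the 5 genes. There, ACAP2 stood at 398 and 168 CPM with and without NTP, and LAMP1 at 147 and 83.8 CPM. PKNOX1 had 27 counts with and 0 without NTP, PTMS 15 and 0, and MKNK2 6 and 0. A count of 0 in the library without NTP allows a level of up to 155 CPM (exact Poisson 95% limit), beside levels with NTP of 234, 130 and 51.9 CPM, so no fold is given. The interval of PKNOX1 with NTP (154 to 340) also reaches that limit.

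The test of NTP gave no call at these genes. With edgeR's quasi-likelihood test over 14907 genes, the adjusted p of the 5 genes was 0.75 to 0.996 in WT, 1 in hNABP2 KO and 0.494 to 0.778 in hNABP1 KO. The lowest unadjusted p was 0.0144, that of PKNOX1 in hNABP1 KO. Of all genes tested, 0% were called in each genotype, with 166, 359 and 957 genes at an unadjusted p under 0.05 in WT, hNABP2 KO and hNABP1 KO, and DESeq2 called 0. None of the 5 genes had groups that do not overlap, beside 2.1%, 2.25% and 2.6% of all genes. All 5 were at 0 in repeat 2 with NTP in every genotype, so a higher level with NTP could not show in this way. The interaction, which asks whether the effect of NTP differs from that in WT, had adjusted p-values of 0.966 to 1 for the 5 genes in hNABP2 KO and of 1 in hNABP1 KO. It called 0% of genes in both cases, with 256 and 366 genes at an unadjusted p under 0.05 and 0 called by DESeq2.

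Paralogues and partners of the 5 genes were looked up in the same files, 52 genes in 5 lists. A promoter peak in ChIP repeat 1 was present for 36 of them (69.2%), beside 22.4% of all RefSeq promoters, and a promoter peak in both repeats for 11 (21.2%), beside 6.09%. Many of these are broadly expressed genes, and expression was not matched. Around LAMP1, 2 of 11 genes of lysosomes and their regulators had a peak in both repeats: SCARB2, a lysosomal membrane receptor (2.73-fold in repeat 1 and 6.52-fold in repeat 2), and TFEB, the factor that drives lysosomal genes through E-boxes (2.61 and 6.52). Around MKNK2, 11 of 12 genes had a repeat 1 peak, and the scaffold EIF4G1 (4.61 and 5.44) and the eIF4E inhibitor EIF4EBP2 (2.69 and 5.23) had both. Around PKNOX1 it was PBX3 alone of 10 (2.10 and 4.68).

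Among 7 relatives and partners of PTMS, PTMA, the gene of prothymosin alpha, had a pair of overlapping peaks with folds of 6.54 and 4.70 and a weaker pair with 2.41 and 6.16. The folds were 3.97 and 7.94 for the acetyltransferase gene CREBBP, and 6.14 and 9.92 for KEAP1, the inhibitor of NRF2. Around ACAP2, 11 of 12 genes had a repeat 1 peak. ACAP3, a paralogue (3.69 and 5.54), RAB35, a small GTPase that ACAP2 binds (2.02 and 9.91), and AGAP1, another ARF GTPase-activating protein (3.64 and 4.97), had peaks in both. In run-on, 45 of the 52 genes were tested between genotypes and 46 for NTP, and 0 were called in either direction in any comparison by edgeR's quasi-likelihood test. Their median log2 fold change was 0.16 in hNABP2 KO against WT and -0.04 in hNABP1 KO against WT, beside 0.03 and -0.08 over all genes.

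Likeness of run-on profiles was measured by the Pearson correlation of log2(CPM + 10) over the 18 libraries with 3154 other genes of 50 or more counts. The nearest genes were WDR34 (0.894) and HMGXB3 (0.885) for LAMP1, HELZ2 (0.993) and VPS37B (0.989) for MKNK2, and CDS2 (0.996) and RRP1 (0.985) for PKNOX1. They were DYNC1H1 (0.957) and HNRNPA1 (0.946) for PTMS, and LINC00685 (0.917) and HPCAL1 (0.916) for ACAP2. The median over all genes was 0.27 to 0.302 for the other 4 and 0.088 for PTMS. All profiles share the depth gap between repeats, so libraries at 0 count as likeness.

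Genes close to the members had counts of their own. GRTP1 lies 491 bp from LAMP1 and had 5, 8 and 24 counts in repeats 1, 2 and 3. LAG3 lies 1568 bp from PTMS and had 1, 0 and 14, and XXYLT1 lies 3586 bp from ACAP2 and had 0, 0 and 72. The labels do not say whether the counting used strand, so antisense reads within a member cannot be told apart from its own.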

How the data were processed

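Run-on, ChIP and DRIP libraries of HT1080 cells were grouped by their titles. The submitters' processing notes name cutadapt 1.18, Bowtie2 2.3.5, SAMtools, MACS2 2.2.1 and hg38, but give no settings, control libraries or use of strand. The deposited run-on table gives raw counts per gene symbol, not normalized by the authors. Their deposited peak lists hold, for each library, a fold (a ratio of the summit to local background), -log10 p and q values, and a score that follows the -log10 q. The fold of ChIP repeat 1 comes from the authors' deposited annotation of its peaks, which also gives the promoter calls.

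Counts were tested with edgeR 4.0.16 in R 4.3.3 (quasi-likelihood, TMM factors, genes with 10 or more counts over the libraries of the fit, Benjamini-Hochberg over all genes tested, threshold 0.05), on 9 libraries for genotype and 18 for NTP. The fit was tested on simulated data. The simulated libraries had an equal depth, higher than the real ones, so they do not cover the depth gap and low counts here. CPM used library totals, and Poisson intervals are exact at 95%. Alternatives were RLE factors, library totals, filterByExpr, no filter, DESeq2 1.42.0, a replicate block and libraries left out. Deviations of same-numbered run-on libraries with NTP from their group means correlated at 0.197 to 0.496 over 9 pairs. Those of different numbers correlated at -0.285 to 0.01 over 18. Libraries of the same number thus deviated alike, as read from the data. Subtracting group means lowers the second set of values, and repeat 3 was much deeper, so the check cannot show that the libraries were paired. Peaks within 1000 bp of a RefSeq start were counted as start peaks, with alternatives of 500 and 3000 bp. Summit-centred sequence windows had been planned, but promoter windows of the same length from the RefSeq table (GRCh38.p14) were used, since no genome was used here. The text names the 5 members, the non-members next to them in the ranking, listed paralogues and partners with a peak in both ChIP repeats or past the threshold, and the 2 genes most alike in profile. The members and lists were chosen with earlier results of these data known.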

Additional observations from a re-analysis of the deposited data

How the results depend on the processing

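The counts of called genes stayed at 0 under every alternative run except RLE factors, which called 1 gene for NTP in WT and 3 in hNABP1 KO, and the replicate block. The block called 15 genes in hNABP1 KO against WT, 17 in hNABP2 KO against hNABP1 KO and 1 for NTP in hNABP1 KO, none a member, and 0 in each without the third hNABP1 KO repeat of the arm compared (an alternative chosen after seeing the data). It changed no other call. In the 2 comparisons of a knockout with WT no member passed the threshold under any alternative run (lowest adjusted p 0.602), and the lowest with the block in any comparison was 0.283, PKNOX1 for NTP in hNABP1 KO. The signs of their small fitted log2 folds were not stable, and the cause was not tested. Under alternatives that keep all libraries or only repeats 1 and 2, 11 of 52 values reversed. With the block and without the third hNABP1 KO repeat, 2 of 5 values reversed. In hNABP2 KO against WT these were MKNK2 with RLE factors (-0.13), library totals (-0.09), no filter (-0.04) and DESeq2 (-0.12), LAMP1 with library totals (-0.05), and PKNOX1 and ACAP2 with the replicate block (both 0.06). In hNABP1 KO against WT they were MKNK2 with RLE factors (-0.15), library totals (-0.06), DESeq2 (-0.10) and the block (-0.09), and PKNOX1 (-2.33) and ACAP2 (-3.28) with the block and without the third hNABP1 KO repeat. Leaving out 1 library at a time reversed 19 of 60 values. In hNABP2 KO the range was -2.41 to 1.32 in LAMP1, -4.33 to 4.19 in MKNK2, -4.55 to 1.03 in PKNOX1, -0.41 to 1.33 in PTMS and -1.72 to 5.37 in ACAP2. In hNABP1 KO it was -5.68 to 0.69, -0.28 to 4.31, -4.66 to 2.15, 0.32 to 1.33 and -5.90 to 6.04, in the same order. With repeats 1 and 2 alone PTMS was the only member tested, and with filterByExpr none was. Members in both ChIP repeats numbered 3 in place of 4 at a fold or -log10 q of 5 or more, and those with a run-on start peak 4 in place of 3 at 3000 bp and 2 without the third hNABP1 KO repeat. The whole-peak sequence window was not run. Depth limits every run-on value here: in repeats 1 and 2 the members other than PTMS were at 0 to 2 counts in each library.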
